A study of Mus musculus with 14 samples.

Results

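The 6 genes described here encode 4 subunits of the AMPA-type glutamate receptor (Gria1, Gria2, Gria3 and Gria4) and 2 transmembrane AMPA receptor regulatory proteins, or TARPs (Cacng4 and Cacng5). They were taken by name from a table of 255 genes, and all 6 were present. AMPA receptors are tetrameric ion channels that carry most fast excitatory transmission in the brain, and the hippocampal circuit from dentate gyrus to CA3 to CA1 runs on them. Their mix of subunits sets how the channel behaves: GluA2, the product of Gria2, is RNA-edited at its pore and keeps calcium out of the channels that contain it, while GluA1, the product of Gria1, carries phosphorylation sites used in activity-dependent insertion at synapses. TARPs bind the receptor, bring it to the membrane and synapse, and slow or otherwise change its gating. Cacng4 encodes the TARP γ-4, and Cacng5 encodes γ-5, a type II TARP known in rodents from CA2 neurons and Bergmann glia.

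Transcripts had been counted by MERFISH, which images single RNA molecules of chosen genes inside outlined cells, in fresh-frozen mouse hemibrains that were cut sagittally on a cryostat. The 14 samples, here called sections, formed 4 groups: Ir-Rz (cranial irradiation and RZ, n = 2), Ir-Veh (irradiation and vehicle, n = 4), Ctl-Rz (no irradiation, RZ, n = 3) and Ctl-Veh (no irradiation, vehicle, n = 5). The series title places the study in cognitive decline after cranial radiation and in BDNF augmentation. RZ is the labels' abbreviation and is kept as written. The sources used here give no strain, age, sex, radiation dose or time of treatment, nor are promoters, transgenes or mutant alleles named for any group. A number after a group name is the imaging run. Each of the 7 runs held 2 sections of different groups: Ir-Rz and Ir-Veh in runs 1 and 9, Ir-Veh and Ctl-Veh in runs 2 and 12, and Ctl-Rz and Ctl-Veh in runs 3, 8 and 11.

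The deposited annotation put 13602 cells into 3 classes of excitatory neurons: 8561 of the dentate gyrus (DG), 3397 of CA1 and 1644 of CA3. A section had 137786 to 434127 counts of the 255 genes, and its CA3 class held as few as 57 cells. The CA1 marker Fibcd1 averaged 6.44 counts per CA1 cell, against 0.131 per CA3 cell and 0.294 per DG cell. The CA3 marker Iyd averaged 1.14 counts per CA3 cell, against 0.120 per CA1 cell and 0.186 per DG cell. Grm2, used as a dentate marker, averaged 3.09 counts per DG cell, 0.116 per CA1 cell and 0.179 per CA3 cell. Markers of astrocytes summed to 16.8 to 29.8 counts per 10000 over the 14 sections (5 of 6 measured), those of microglia to 5.41 to 12.3 (4 of 5 measured), those of inhibitory neurons to 27.6 to 63.4 (5 of 6 measured) and those of endothelium to 3.53 to 9.04 (3 of 4 measured). The ranges of these 4 lists overlapped in the 3 group comparisons made below, except that endothelial markers summed to 5.37 to 9.04 in Ctl-Rz and 3.53 to 4.85 in Ctl-Veh. Their part in the results was not tested.

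The subunits were among the most counted genes of the table, and the 2 TARP genes it held among the sparse ones. The TARP genes Cacng2, Cacng3, Cacng7 and Cacng8 were not in the table. Gria1 gave 265100 counts in all, Gria2 206784, Gria3 55673 and Gria4 4306, while Cacng5 gave 1450 and Cacng4 563. By total counts these ranked 2, 5, 20, 72, 126 and 198 of the 255 genes, in the same order. How many molecules of each gene the probes detect is not known and no length scaling applies to imaged molecules, so a share below is a share of detected Gria molecules, to be compared between classes and sections and not read as receptor stoichiometry.

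Per cell, Gria1, Gria2 and Gria3 were counted more in both pyramidal classes than in DG, in at least 13 of 14 sections each (plot of counts per cell). Mean Gria1 counts per CA1 cell were 26.9 ± 7.96, per CA3 cell 21.96 ± 6.91 and per DG cell 16.6 ± 4.32 (SD over 14 sections), and it was higher in CA1 than in DG in 14 of 14 sections and higher in CA1 than in CA3 in 14 of 14. Gria2 averaged 19.4 ± 6.53 in CA1, 21.6 ± 8.19 in CA3 and 13.5 ± 4.99 in DG, with CA3 above CA1 in 10 of 14 sections. Gria3 averaged 6.32 ± 1.74 in CA1, 5.34 ± 1.94 in CA3 and 3.25 ± 1.12 in DG. The largest class difference of Gria3 was between CA1 and DG, a median of 2.02-fold within a section, and CA3 lay below CA1 in 12 of 14 sections. Cells of the classes also differed in depth, with a mean of section medians of 374 ± 86.4 counts of the 255 genes in CA1, 325 ± 80.5 in CA3 and 215 ± 37.7 in DG. The 255 genes held 55.9% to 59.2% of the deposited total count of a section. How the classes were assigned is not stated, and these genes may have served to define them, so the class values are a description with no test.

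Gria4 and the 2 TARP genes were rarer and favoured other cells. Gria4 averaged 0.504 ± 0.139 counts per cell in CA3, 0.325 ± 0.0988 in CA1 and 0.305 ± 0.0976 in DG, and CA3 was the highest class in 14 of 14 sections. Cacng4 averaged 0.0578 ± 0.0281 in CA3, 0.0433 ± 0.0152 in DG and 0.0326 ± 0.0112 in CA1, with wide overlap of the classes. Cacng5 averaged 0.227 ± 0.223 in CA3, 0.112 ± 0.0449 in DG and 0.0645 ± 0.0278 in CA1. The CA3 mean of Cacng5 had an SD as large as the mean itself, and single sections ran from 0.0263 to 0.860 counts per cell.

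**Figure D1:**
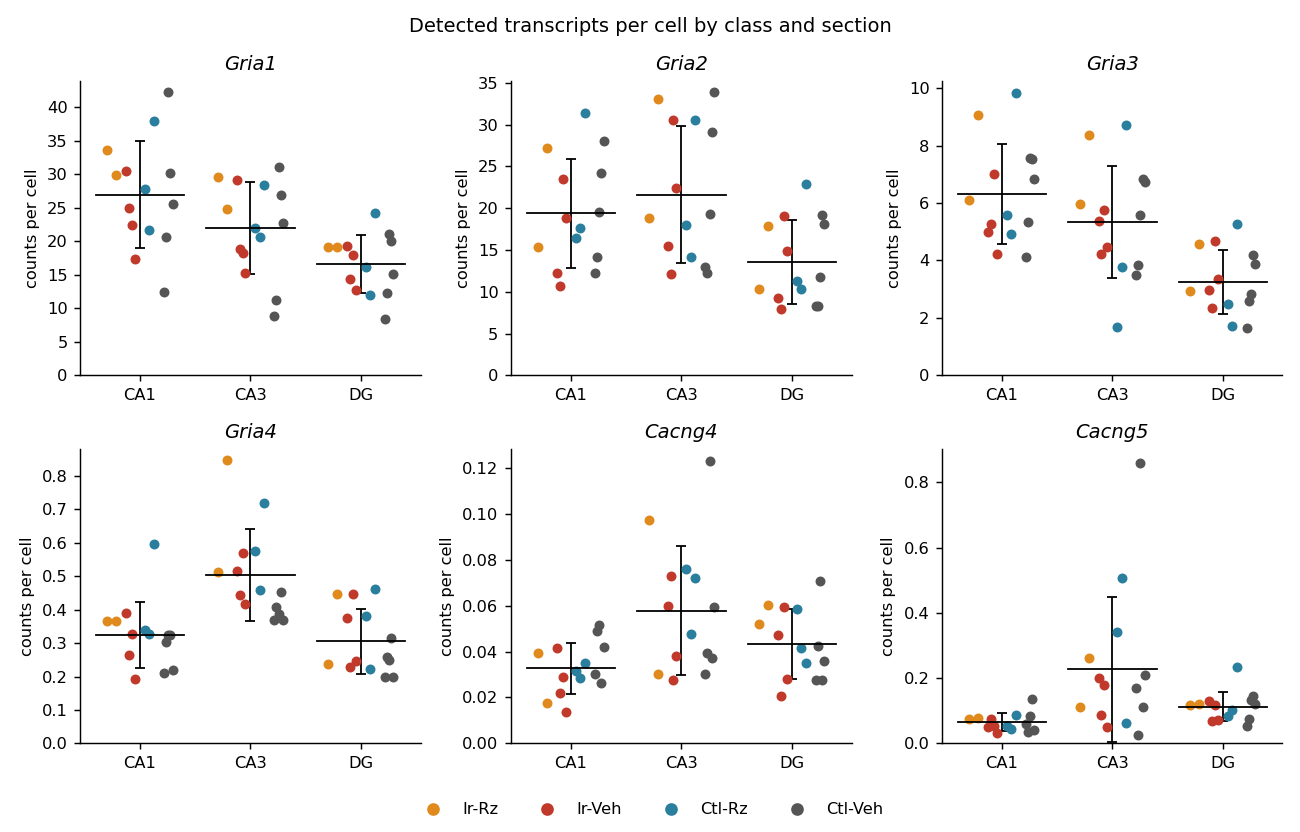
Counts per cell of each gene (vertical axes, each with its own scale from 0) in the CA1, CA3 and DG classes; each point is 1 section coloured by group, and the bar and whiskers are the mean and SD of 14 sections. Gria1 and Gria3 lie highest in CA1, Gria4 lies highest in CA3 at 0.504 counts per cell, and Cacng5 in CA3 reaches 0.860 in Ctl-Veh 8.

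When counts were set against the total of the class in the same section, the order of the classes changed for Gria1, Gria2, Gria4 and Cacng4. Gria3 lost its order between CA3 and CA1, as given below. Cacng5 lost its order between CA3 and DG, higher in CA3 in 7 of 14 sections against 9 of 14 per cell. Per 10000 counts, Gria1 was lower in CA3 than in DG in 12 of 14 sections, with a median ratio of 0.869, and Gria2 was lower in CA1 than in DG in 14 of 14, with a median ratio of 0.861. Gria2 was higher in CA3 than in CA1 in 14 of 14 sections, by a median of 1.25-fold. Gria4 was lower in CA1 than in DG in 14 of 14 (median ratio 0.612) and higher in CA3 than in CA1 in 14 of 14 (1.91-fold). Per cell, Gria4 had been higher in CA1 than in DG in 10 of 14 sections. Gria3 was higher in CA1 than in DG in 12 of 14 sections (1.20-fold), and its CA3 and CA1 levels split 7 to 7. For the TARPs, Cacng4 and Cacng5 were each lower in CA1 than in DG in 14 of 14 sections, with median ratios of 0.491 and 0.325. Cacng4 was higher in CA3 than in CA1 in 14 of 14 sections and Cacng5 in 12 of 14. Cacng4 was higher in CA3 than in DG in 5 of 14 sections, against 11 of 14 per cell. Cacng4 and Cacng5 were then summed and set against the subunits, with the unmeasured TARP genes left out. Their counts per 100 Gria counts were 0.600 ± 0.476 in CA3, 0.463 ± 0.0816 in DG and 0.188 ± 0.0542 in CA1 (SD, n = 14). Cacng4 made up 34.9 ± 11.7% of the summed Cacng4 and Cacng5 counts in CA1, 28.4 ± 17.6% in CA3 and 28.8 ± 7.86% in DG.

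Thinning each cell to 100 counts, which left out 253 CA1, 171 CA3 and 1385 DG cells with fewer, gave shares of cells at matched depth. Gria1 was present in 99.6% of CA1, 99.4% of CA3 and 99.8% of DG cells and Gria2 in 97.97%, 98.7% and 99.2% (means of 14 sections). Gria3 was present in 78.8 ± 6.01% of CA1, 75.9 ± 10.9% of CA3 and 73.4 ± 8.85% of DG cells, against 95.4%, 92.2% and 86.3% before thinning. Gria4 was present in 14.2 ± 3.02% of CA3, 12.4 ± 3.03% of DG and 9.37 ± 3.05% of CA1 cells after thinning, against 37.2%, 23.9% and 26.7% before it. At matched depth the order of DG and CA1 for Gria4 is thus the reverse of the unthinned one. Cacng4 was present in 1.78 ± 1.13% of CA3, 1.73 ± 0.60% of DG and 0.939 ± 0.46% of CA1 cells, and Cacng5 in 5.89 ± 5.84%, 4.52 ± 1.31% and 1.51 ± 0.97% in the same order; before thinning these were 5.73%, 4.13% and 3.22% for Cacng4 and 11.6%, 9.89% and 5.23% for Cacng5.

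Gria1 and Gria2 together made up most of the detected Gria molecules in each class, and the balance between them differed by class. In CA1 the shares were 50.8 ± 7.87% Gria1, 36.6 ± 7.47% Gria2, 11.97 ± 1.26% Gria3 and 0.624 ± 0.132% Gria4 (mean ± SD, n = 14 sections). In CA3 they were 44.7 ± 8.91%, 43.4 ± 8.24%, 10.9 ± 2.38% and 1.07 ± 0.280%, and in DG 49.8 ± 7.02%, 39.7 ± 6.53%, 9.54 ± 1.26% and 0.921 ± 0.210%. Within a section the CA3 share of Gria1 was below that of CA1 in 13 of 14 sections, by a median of 6.57 percentage points, and the CA3 share of Gria2 was above that of CA1 in 13 of 14, by a median of 6.98 points. Ctl-Rz 8 was the exception in both. The shares of a section sum to the whole, so the orders of Gria1 and Gria2 are not independent. The Gria3 share was higher in CA1 than in DG in 13 of 14 sections, by a median of 2.43 points. The Gria4 share was lowest in CA1 in 14 of 14 sections. The same counts of sections held in the main Leiden cluster of each class for each of these 4 orders.

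The spread of the shares over the sections was wide. The shares of a section sum to the whole, so a high share of Gria1 leaves little for Gria2. The Gria1 share in CA1 was 60.6 and 44.8% in Ir-Rz, 63.4, 60.7, 42.1 and 42.7% in Ir-Veh, 55.4, 48.6 and 47.5% for Ctl-Rz and 42.9, 50.97, 60.6, 48.4 and 42.1% for Ctl-Veh, each in the order of the runs. The Gria2 share in CA1 was 27.7 and 40.97% in Ir-Rz, 25.4, 25.9, 44.1 and 46.4% in Ir-Veh, 32.8, 39.6 and 39.4% for Ctl-Rz and 42.2, 35.1, 28.1, 38.9 and 46.3% for Ctl-Veh. Sections with a high Gria1 share were those of run 1, Ir-Veh 2 and Ctl-Veh 8, and the groups overlapped. In CA3 the Gria1 share ran from 33.0% in Ir-Veh 9 to 57.6% in Ir-Veh 1, and in DG from 40.7% in Ctl-Veh 12 to 60.5% in Ir-Veh 1 (bars of subunit shares by section). The 2 extremes of CA3 were thus sections of the same group.

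**Figure D2:**
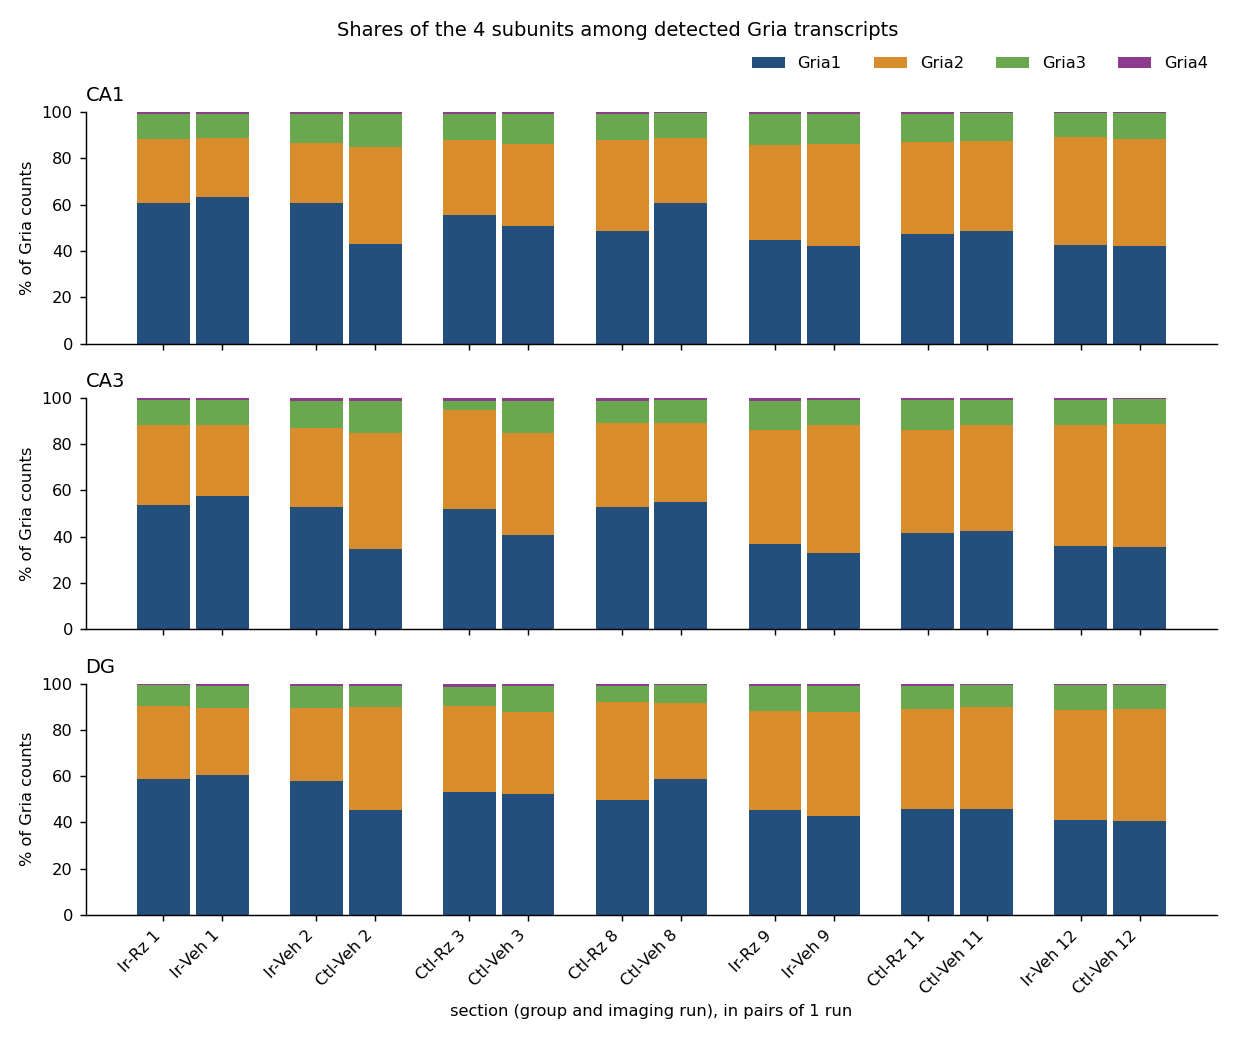
Percent of detected Gria counts given by each subunit (vertical axis) in CA1, CA3 and DG, with 1 bar per section and bars of the same imaging run side by side. Gria1 takes 60.5% in DG of Ir-Veh 1 and 40.7% in DG of Ctl-Veh 12, and Gria3 shrinks to 3.97% in CA3 of Ctl-Rz 3.

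Single cells varied around their section's share a little more than counting alone would give. Among cells with 10 or more Gria counts, the SD of the Gria1 share across cells was 10.005 ± 1.22 points in CA1, 9.87 ± 1.56 in CA3 and 11.2 ± 1.35 in DG (mean ± SD of 14 sections), against binomial counting SDs of 8.06 ± 0.856, 8.21 ± 1.02 and 9.60 ± 0.937. Gria3 had per-cell SDs of 6.61 ± 0.909 points in CA1, 5.63 ± 0.816 in CA3 and 6.53 ± 0.512 in DG, against counting SDs of 5.29 ± 0.665, 5.18 ± 1.003 and 5.66 ± 0.546. Most of the per-cell spread was therefore of the size that counting gives. Gria1 was the most counted subunit in 69.4 ± 23.1% of CA1, 48.8 ± 31.5% of CA3 and 62.5 ± 22.3% of DG cells, and in CA3 that share ran from 9.93 to 90.9% over the sections. Gria3 or Gria4 led in at most 1.07% of the cells of any section and class.

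The question of the irradiated arm was whether radiation changed these genes in vehicle-treated mice. No member passed in any class. For Ir-Veh against Ctl-Veh, edgeR's quasi-likelihood test called 0 of the 250 DG genes, 0 of the 233 CA1 genes and 0 of the 222 CA3 genes fitted (0% called), and DESeq2 also called 0. Before adjustment, edgeR's p was below 0.05 for 6 DG, 5 CA1 and 3 CA3 genes, with 0 members among them. All 6 members were tested in DG and CA3 and 5 in CA1, where Cacng4 fell under the filter on low counts. Members with ranges that did not overlap between these groups numbered 0 in each class, where the share of all fitted genes with such ranges was 1.20% (DG), 0.429% (CA1), 0.450% (CA3) and 1.18% with the classes pooled.

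Gria1 in DG had 791, 921, 557 and 849 counts per 10000 in Ir-Veh 1, 2, 9 and 12, against 611, 617, 769, 815 and 814 in Ctl-Veh 2, 3, 8, 11 and 12. In CA1 it had 774, 789, 574 and 765 in Ir-Veh, against 437, 592, 774, 829.7 and 676 in Ctl-Veh. Ir-Veh 9 was the lowest Ir-Veh section in both classes, and Ctl-Veh 2 the lowest Ctl-Veh section. The log2 fold change of Gria1 was 0.10 ± 0.21 in DG, 0.13 ± 0.21 in CA1 and 0.21 ± 0.27 in CA3 (± SE), and its 95% interval in CA1 was -0.30 to 0.57 (adjusted p = 0.999, edgeR). With the imaging run as a block the estimates were 0.33 ± 0.14, 0.52 ± 0.20 and 0.48 ± 0.28, with adjusted p of 0.840, 0.315 and 0.995 in the same edgeR fit. Runs 2 and 12 held both groups: Gria1 in CA1 was 789 in Ir-Veh 2 against 437 in Ctl-Veh 2, and 765 in Ir-Veh 12 against 676 in Ctl-Veh 12.

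Gria2, the subunit that limits calcium entry, had 379, 506, 592 and 991 counts per 10000 in DG of Ir-Veh, against 607, 421, 432, 782 and 968 in Ctl-Veh. The groups spanned nearly the same range, and their means were 617 ± 264 and 642 ± 235 (SD, n = 4 and 5). The log2 fold change was -0.06 ± 0.28 in DG (95% interval -0.64 to 0.52), -0.0049 ± 0.28 in CA1 and 0.06 ± 0.30 in CA3. Gria3 gave 0.12 ± 0.26 in DG, -0.00016 ± 0.23 in CA1 and 0.04 ± 0.31 in CA3. The DG interval of Gria2 thus left room for a change in either direction.

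Gria4 gave estimates of like size in the 3 classes. In DG it had 15.3, 14.6, 13.8 and 16.4 counts per 10000 in Ir-Veh, against 14.5, 13.1, 9.15, 12.8 and 10.7 in Ctl-Veh. In CA3 it had 14.7, 17.8, 16.02 and 18.2 in Ir-Veh, against 16.2, 16.4, 9.35, 12.5 and 10.6 in Ctl-Veh. The groups overlapped in both classes, in DG only through Ctl-Veh 2, which exceeded Ir-Veh 9. The log2 fold change was 0.32 ± 0.25 in DG, 0.26 ± 0.28 in CA1 and 0.36 ± 0.29 in CA3, positive in all 24 alternatives of each class, with adjusted p of 1, 0.999 and 0.986 (edgeR). The 3 classes come from the same sections and are not independent of each other, and the alternatives reuse those sections. For Ctl-Rz against Ctl-Veh, which shares the Ctl-Veh sections, Gria4 was likewise positive in all 24 alternatives of each class. For the TARPs, Cacng4 gave -0.18 ± 0.31 in DG and 0.02 ± 0.49 in CA3, and Cacng5 -0.15 ± 0.29 in DG, -0.21 ± 0.39 in CA1 and -0.88 ± 0.65 in CA3. Without Ctl-Veh 8, which had the highest Cacng5 level in CA3, that last value was -0.13.

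RZ was compared with vehicle in irradiated mice over 2 against 4 sections. No member passed: edgeR called 0 genes (0% of the 250 DG, 233 CA1 and 222 CA3 genes), and DESeq2 called 0 of 255 in each class. edgeR's raw p was below 0.05 for 5 DG, 3 CA1 and 2 CA3 genes. Gria1 in DG had 848 and 623 counts per 10000 in Ir-Rz 1 and 9, against 791, 921, 557 and 849 in Ir-Veh 1, 2, 9 and 12, a log2 fold change of -0.08 ± 0.27. Gria2 in DG had 456 and 582 in Ir-Rz, against 379, 506, 592 and 991 in Ir-Veh, a log2 fold change of -0.25 ± 0.37. Within the runs that held both groups, the values were 456 in Ir-Rz 1 against 379 in Ir-Veh 1, and 582 in Ir-Rz 9 against 592 in Ir-Veh 9, and the estimate with the run as a block was 0.12 ± 0.13 (adjusted p = 0.913, edgeR). In CA1 the log2 fold changes were -0.01 ± 0.27 for Gria1, -0.14 ± 0.36 for Gria2, 0.04 ± 0.30 for Gria3, -0.08 ± 0.37 for Gria4 and 0.12 ± 0.51 for Cacng5.

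Cacng4 in DG was the single member and class whose ranges did not overlap, where 8% of all genes fitted in DG had such ranges (7.30% in CA1, 5.86% in CA3, 6.27% with the classes pooled). It had 2.30 and 1.96 counts per 10000 in Ir-Rz, against 1.93, 1.33, 1.84 and 1.87 in Ir-Veh. Both Ir-Rz values lay above all 4 Ir-Veh values, the lower one by less than the spread among the Ir-Veh sections. That separation depended on the TMM scaling of totals, with DG factors of 0.927 in Ir-Rz 1 and 1.25 in Ir-Veh 9. Without the scaling, Ir-Veh 9 lay above Ir-Rz 1 and the ranges overlapped. The counts were also few: 6.03% of the 199 DG cells of Ir-Rz 9 had a Cacng4 count. The log2 fold change was 0.32 ± 0.40, with a 95% interval of -0.51 to 1.15 (adjusted p = 1, edgeR). Its level in CA3 was 2.63 and 0.637 in Ir-Rz, against 1.71, 2.91, 0.772 and 1.66 in Ir-Veh, which overlapped.

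RZ against vehicle without irradiation gave 0 calls as well. edgeR called 0 genes (0% of the 250 DG, 233 CA1 and 222 CA3 genes), and DESeq2 called 0 of 255 in each class. edgeR's raw p was below 0.05 for 4 DG, 1 CA1 and 6 CA3 genes. With the run as a random effect, limma called 2 genes in DG, neither of them a member. No member had ranges that did not overlap, beside 1.20% of fitted genes (DG), 0.858% (CA1), 1.80% (CA3) and 0.392% with the classes pooled. Endothelial markers, whose sums over all cells did not overlap between these groups, are given above. Gria3 in DG had 98.9, 87.5 and 167 counts per 10000 in Ctl-Rz 3, 8 and 11, against 121, 131, 103, 170.3 and 208 in Ctl-Veh 2, 3, 8, 11 and 12. Ctl-Rz 3 and 8 were the lowest of these 8 sections and Ctl-Rz 11 lay among the high ones. The log2 fold change was -0.32 ± 0.28, and -0.22 ± 0.11 with the run as a block (adjusted p = 0.794, edgeR). With the number of cells in place of the library size the sign of Gria3 in DG turned, to 0.06.

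Gria1 gave -0.10 ± 0.23 in DG, 0.06 ± 0.23 in CA1 and 0.16 ± 0.29 in CA3 for Ctl-Rz against Ctl-Veh, and Gria2 gave -0.18 ± 0.31, -0.02 ± 0.31 and -0.22 ± 0.33. Gria4 gave 0.19 ± 0.27, 0.44 ± 0.30 and 0.34 ± 0.32, with an interval in CA1 of -0.19 to 1.06, and the CA1 value was 0.12 without Ctl-Rz 11. In CA1 Gria4 had 8.73, 7.78 and 13.3 counts per 10000 in Ctl-Rz, against 7.42, 8.71, 5.95, 8.94 and 5.79 in Ctl-Veh. Ctl-Rz 11 was the highest, and Ctl-Rz 3 and 8 lay within the Ctl-Veh range. The TARP genes gave -0.11 ± 0.34 for Cacng4 in DG and 0.09 ± 0.32 for Cacng5 in DG.

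**Figure D3:**
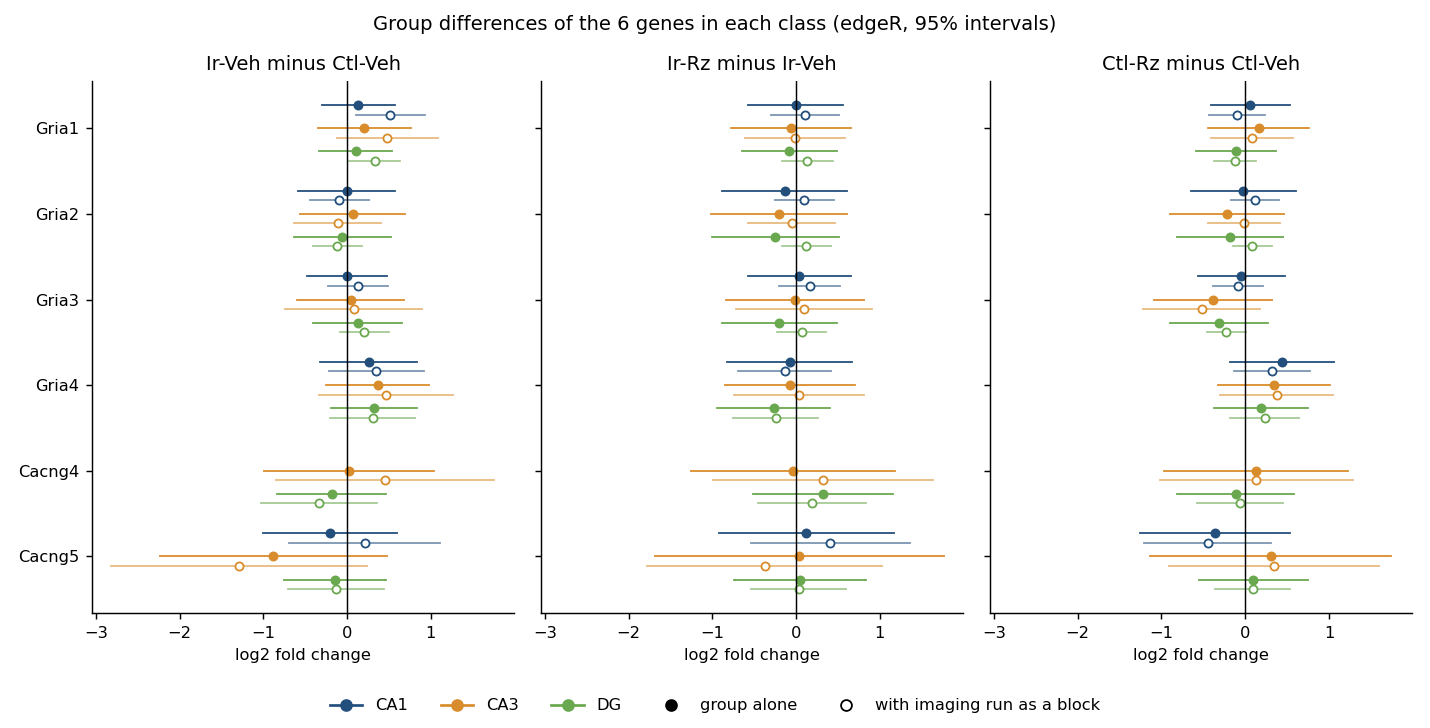
Log2 fold change (horizontal axis) of each gene in CA1, CA3 and DG for the 3 group comparisons, with 95% intervals from edgeR; filled points are the fit on group alone and open points the fit with the imaging run as a block. With group alone all intervals cross 0, and with the block the intervals of Gria1 in CA1 and DG for Ir-Veh minus Ctl-Veh do not, at adjusted p of 0.315 and 0.840.

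The difference between the RZ effects in irradiated and unirradiated mice was tested as an interaction in the same edgeR fit, which called 0 genes in each class (0%), as did DESeq2, with edgeR's raw p below 0.05 for 0 DG, 2 CA1 and 4 CA3 genes. Gria4 had the largest estimates among the subunits, -0.46 ± 0.42 in DG, -0.52 ± 0.48 in CA1 and -0.41 ± 0.50 in CA3 on the log2 scale (adjusted p of 0.992, 0.991 and 0.991). For the other subunits the estimates ran from -0.23 ± 0.45 for Gria1 in CA3 to 0.37 ± 0.52 for Gria3 in CA3.

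Shares of the subunits were compared between groups over sections by two-sided exact permutation tests, 36 in all for 4 subunits, 3 classes and 3 comparisons. None had an unadjusted p under 0.05, and the smallest adjusted p was 0.924. The Gria2 share in DG was 38.4 ± 9.39% in Ir-Veh and 41.1 ± 6.57% in Ctl-Veh (SD, n = 4 and 5), with p = 0.611 by the exact test. In CA3 it was 43.2 ± 12.7% in Ir-Veh against 45.6 ± 7.22% in Ctl-Veh, with p = 0.738 by the exact test. Within runs, the Gria1 share in CA1 was 17.8 points higher in Ir-Veh 2 than in Ctl-Veh 2 and 0.604 points higher in Ir-Veh 12 than in Ctl-Veh 12. Ir-Rz and Ir-Veh differed by at most 1.68 points in the mean share of any subunit and class, but 2 against 4 sections cannot give an exact p below 0.0667. These means were imprecise: the largest difference, for Gria1 in DG, had an SE of 8.33 points. Within runs 1 and 9 the Gria2 share in CA3 differed between these groups by -6.25 to 3.59 points, so the small mean differences do not show equal shares. The largest difference of the family was 7.10 points more Gria1 in CA3 of Ctl-Rz than of Ctl-Veh (exact permutation p = 0.321), with section values of 52.1, 52.8 and 41.5% in Ctl-Rz and 34.7, 40.6, 55.05, 42.5 and 35.7% in Ctl-Veh.

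A ratio of 2 classes within a section is not moved by a detection rate that the classes share, so the log2 ratios of CA1 over DG and CA3 over DG were compared between groups in the same way (6 genes, 2 ratios and 3 comparisons). Of these 36 comparisons, 0 had an unadjusted p under 0.05 by the two-sided exact permutation test, and the smallest adjusted p was 0.964. The lowest raw p was 0.125, for 2 comparisons of Ctl-Rz with Ctl-Veh. For Gria1 the log2 ratio of CA3 over DG was 0.02 ± 0.24 in Ctl-Rz and -0.33 ± 0.22 in Ctl-Veh (SD, n = 3 and 5, exact). For Gria4 it was 0.31 ± 0.16 in Ctl-Rz and 0.09 ± 0.15 in Ctl-Veh (exact). For Ir-Veh against Ctl-Veh the log2 ratio of Gria2 in CA1 over DG was -0.25 ± 0.19 in Ir-Veh and -0.26 ± 0.11 in Ctl-Veh.

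More genes differed between imaging runs than between groups, Gria2 and Gria3 among them. Given the group, edgeR called 95 of the 250 DG genes between runs (38.0%), 91 of the 233 CA1 genes (39.1%), 4 of the 222 CA3 genes (1.80%) and 42.4% with the classes pooled. Gria2 was called in DG (adjusted p = 0.00133) and CA1 (7.78e-05) and not in CA3 (0.0931), and Gria3 in DG (0.00329) and CA1 (0.0137) and not in CA3 (0.470). Gria1 was called in DG alone (0.0493, against 0.0738 in CA1 and 0.345 in CA3), and Gria4, Cacng4 and Cacng5 in no class. By DESeq2's likelihood ratio test Gria2 was called in CA3 too (0.0162), and Cacng5 in CA3 (0.0194). Between groups given the run, edgeR called 0 genes in each class. Between runs in DG, 3 of the 6 members were thus called, beside 38.0% of all genes.

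Gria2 levels in CA1 were 376 and 309.9 counts per 10000 in Ir-Rz 1 and Ir-Veh 1, 337 and 430.3 in Ir-Veh 2 and Ctl-Veh 2, 423 and 407 in Ctl-Rz 3 and Ctl-Veh 3, and 418 and 359 in Ctl-Rz 8 and Ctl-Veh 8. They were 569 and 600.5 in Ir-Rz 9 and Ir-Veh 9, 699 and 667 in Ctl-Rz 11 and Ctl-Veh 11, and 831 and 743 in Ir-Veh 12 and Ctl-Veh 12. All 6 sections of runs 9, 11 and 12 lay above all 8 sections of runs 1, 2, 3 and 8, and each of these sets of runs held Ir-Rz, Ir-Veh, Ctl-Rz and Ctl-Veh sections. The same split of Gria2 held in CA3 (676 to 981 against 443 to 567), while in DG Ctl-Veh 2, at 607, lay above both sections of run 9. Gria1 did not follow: its means over the same sets of runs in CA1 were 719 and 677, a ratio of 1.06, while the ratio was 1.79 for Gria2 and 1.36 for Gria3. The grouping of runs was chosen after these values were seen and carries no test.

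**Figure D4:**
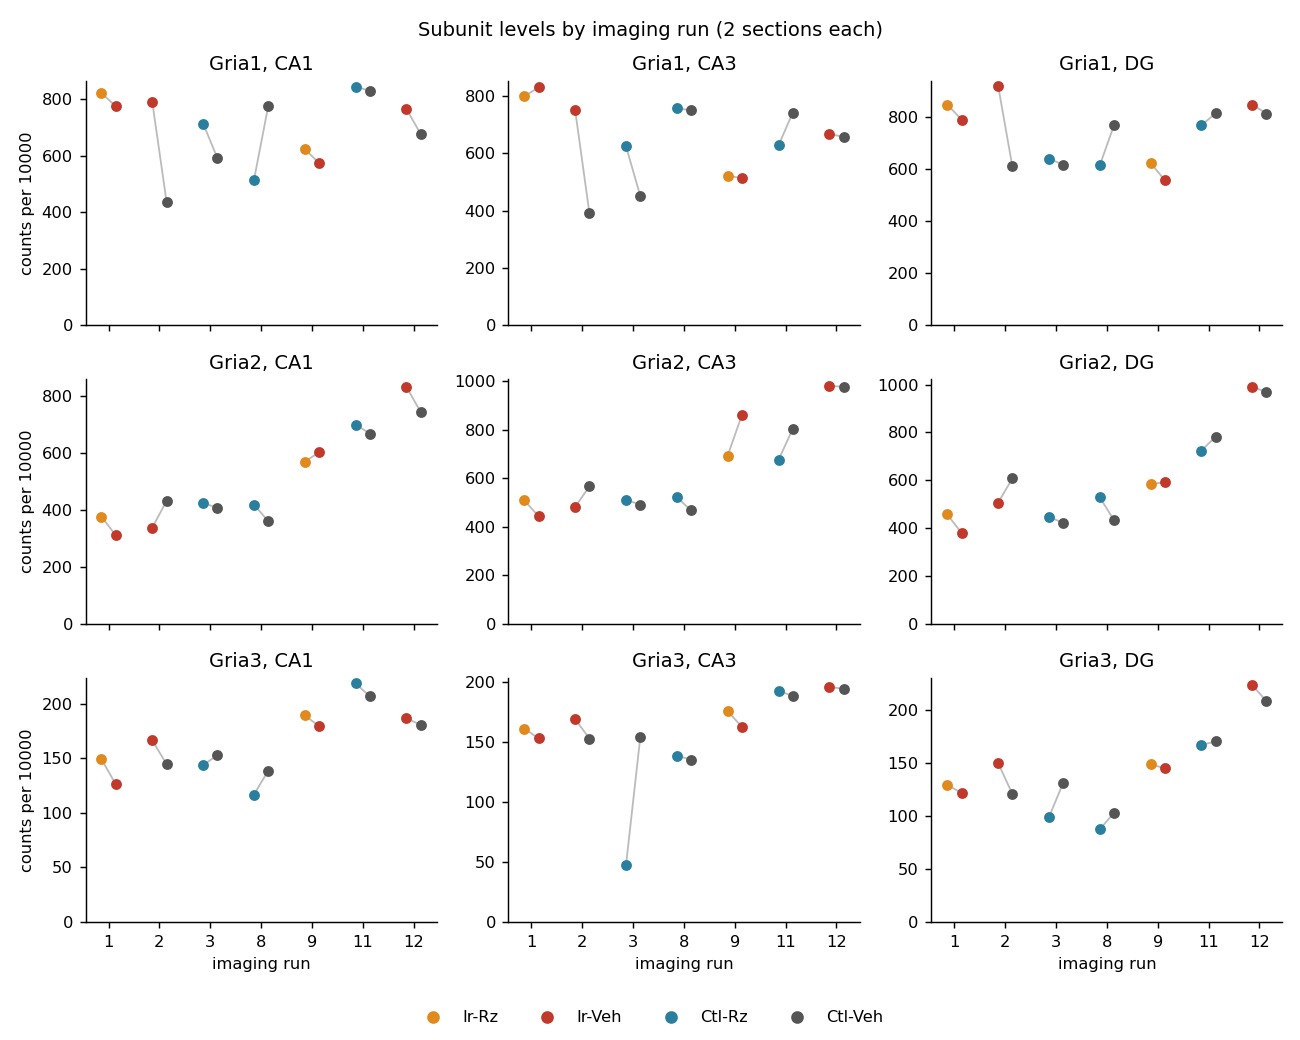
Counts per 10000 (vertical axes, from 0) of Gria1, Gria2 and Gria3 in CA1, CA3 and DG by imaging run; the 2 points of a run are its sections, coloured by group and joined by a line. Gria2 in CA1 lies between 569 and 831 in runs 9, 11 and 12 and between 309.9 and 430.3 in the other 4 runs.

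Gria3 in CA3 of Ctl-Rz 3 stood apart from the other 13 sections. It had 47.7 counts per 10000 there, against 135.5 to 196 in the others, and its share of Gria counts was 3.97%, against 9.66% to 13.8% elsewhere. In the main CA3 cluster of Ctl-Rz 3, 24.2% of 91 cells had no Gria3 count, against 0% to 5.13% of cells in the other sections, and the median cell had 1 count, against 3 to 10. Gria3 in the same section was not as low in CA1 (144) or DG (98.9). The low value was shared by other synaptic genes of that class: Grin2a, an NMDA receptor subunit, had 60.8 counts per 10000, against 202 to 343 in the other sections, and Dlg4, which encodes the scaffold PSD-95, had 52.2, against 126 to 335. Grin1 was within the range of the others, at 502 against 379 to 802. The CA3 profile of Ctl-Rz 3 correlated with those of the other sections at a mean r of 0.887 across 109 genes, against 0.911 to 0.947 for the other 13 sections (genes are not independent replicates). Without Ctl-Rz 3 the log2 fold change of Gria3 in CA3 for Ctl-Rz against Ctl-Veh was 0.01, in place of -0.39 ± 0.34. Grin2a and Dlg4 were picked from the lists below after their values were seen.

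Cacng5 counts in CA3 were concentrated in few cells. Its level was 3.001 and 5.52 counts per 10000 in Ir-Rz 1 and 9, 5.76, 3.49, 5.02 and 2.13 in Ir-Veh 1, 2, 9 and 12, 9.70, 18.7 and 1.40 for Ctl-Rz 3, 8 and 11, and 7.45, 1.06, 20.8, 3.07 and 6.08 for Ctl-Veh 2, 3, 8, 11 and 12. Both sections of run 8, whose CA3 classes were the smallest at 63 and 57 cells, were the highest. Cells with 3 or more Cacng5 counts numbered 34 of 1644 in CA3 (2.07%) and held 46.2% of the class's Cacng5 counts, against 20 of 8561 cells (0.234%) and 6.96% of counts in DG and 7 of 3397 (0.206%) and 13.3% in CA1. Of the 34 cells, 17 had exactly 3 counts, and 30 further CA3 cells had 2. They made up 8 of 57 CA3 cells in Ctl-Veh 8, 5 of 63 in Ctl-Rz 8 and 5 of 132 in Ctl-Rz 3, and 0 to 4 cells in each other section. The median Cacng5-rich cell had 534.5 counts of the 255 genes, against 305 in the other CA3 cells.

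These cells also differed from the rest of the CA3 class in genes that did not choose them, which is given as a description because the cells were chosen after their counts were seen. Per 10000 counts, Acan, which encodes the perineuronal net core protein aggrecan, stood at 44.8 in the 34 cells (95% Poisson interval 35.4 to 56.0, counting error only) and 6.38 in the other 1610. Bcl6, a transcriptional repressor, stood at 54.0 and 9.25, and Bcl11b, a transcription factor, at 53.5 and 12.6. Iyd, the CA3 marker above, stood at 4.02 and 35.5, the adhesion gene Cdh9 at 1.72 and 26.8 and the potassium channel subunit gene Kcnab1 at 8.62 and 81.5, each lower in the Cacng5-rich cells of all 7 sections that held 2 or more of them. Cckbr, the other measured CA3 marker, stood at 19.5 and 21.5 and was lower in 6 of 7 sections. Acan, Bcl6 and Bcl11b were each higher in all 7 sections. Of the 3 listed CA1 markers, Gm2115 stood at 159.8 in the Cacng5-rich cells and 23.8 in the other CA3 cells, where the CA1 class averaged 151, and was higher in the Cacng5-rich cells in all 7 sections. Fibcd1 (1.15 and 4.10) and Adgrl2 (1.15 and 3.84) were low in both sets of cells, where the CA1 class averaged 169 and 95.8. By Leiden cluster, 28 of the 34 cells lay in the main CA3 cluster and 6 in the main CA1 cluster. Of the other 1610 cells, 1101 and 182 did. Among the subunits, Gria2 stood at 478 and 679, lower in 6 of 7 sections, and Gria4 at 24.7 and 14.9, higher in 6 of 7. Gria1 stood at 732 and 657, higher in 6 of 7, and Gria3 at 137 and 163, lower in 4 of 7. Of the 34 cells, 13 came from run 8. Pooled over sections, the Gria2 share was 34.9% of 2387 Gria counts in these cells, against 44.9% of 79727 in the rest. Within sections, it was lower in the Cacng5-rich cells in 7 of 7, by 4.96 to 13.1 percentage points. The mean over these sections was 35.6% in the Cacng5-rich cells and 43.4% in the other CA3 cells, a difference of -7.84 ± 2.85 points (SD, n = 7). The Gria1 share was higher in the Cacng5-rich cells in 7 of 7 sections, by 5.92 ± 2.82 points, and the 2 shares are not independent.

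**Figure D5:**
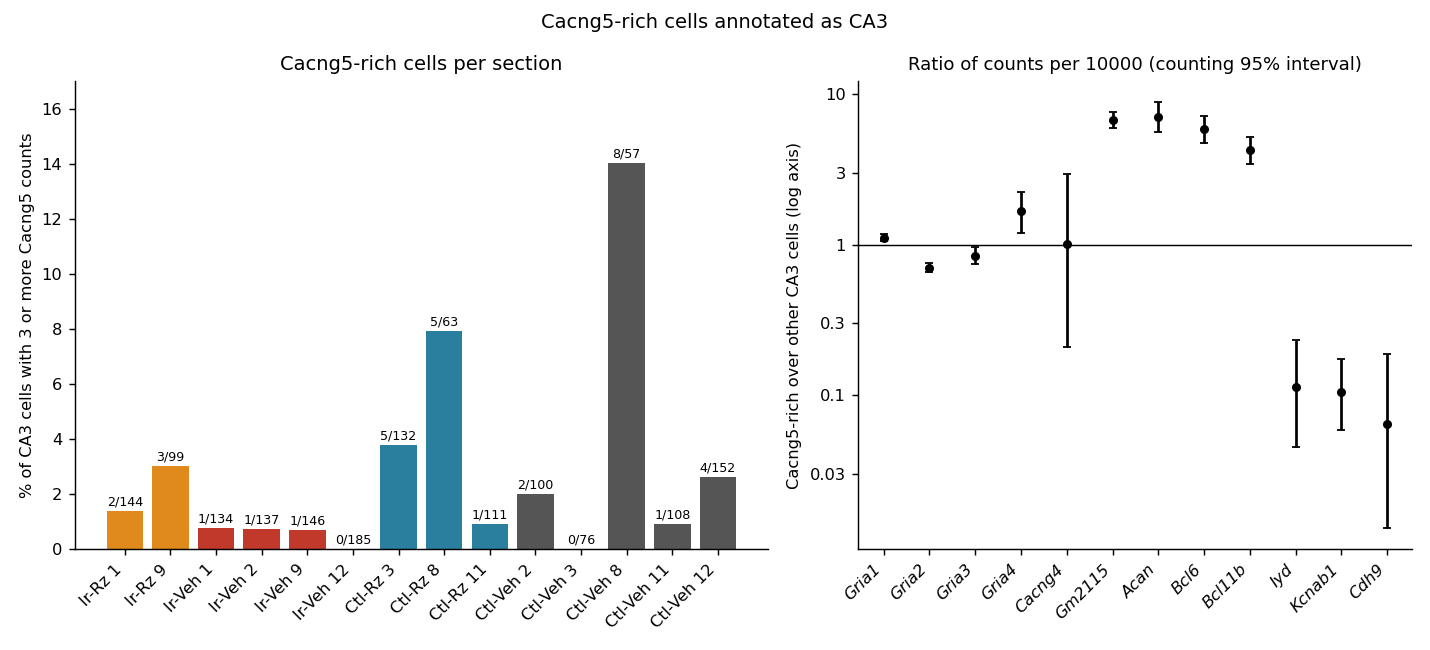
Left, percent of CA3 cells with 3 or more Cacng5 counts in each section, with the number of such cells over all CA3 cells printed above each bar. Right, ratio of counts per 10000 in these 34 cells over the other 1610 CA3 cells on a log axis, with 95% intervals for counting error: Acan, Gm2115, Bcl6 and Bcl11b lie above 4, and Iyd, Kcnab1 and Cdh9 below 0.2.

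For each member the genes with the most similar levels were sought over the 42 class and section values, among genes with 0.2 or more counts per cell, by Pearson's r on log2 CPM. The values share sections, runs and depth, so the correlations are a description. Gria1 was nearest to the potassium channel gene Kcnd2 (r = 0.677), then Dapk1 (0.480) and Apoe (0.479). Gria2 was nearest to the nicotinic receptor gene Chrna7 (0.752), then Cdh12 (0.715) and Fermt2 (0.693), and Gria3 to Cdh12 (0.685), Gpr63 (0.57) and Bace1 (0.563). For Gria4, r was 0.765 with Cd2ap and 0.719 with Cdh9. Cacng4 was nearest to Apoe, Kcnc1 and Ddit3 (0.675, 0.675 and 0.672), and for Cacng5 r was 0.632 with Kcnc1 and 0.623 with Itga7. No member was among the 3 nearest of another.

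Other genes of the glutamatergic synapse gave no call between groups either. The table held 6 of 28 listed genes for AMPA receptor scaffolding, trafficking and editing (Dlg4, Adarb2, Camk2a, Camk2g, Arc and Homer1) and 6 of 14 other ionotropic receptor genes (Grin1, Grin2a, Grin2b, Grin2c, Grin3a and Grin3b). edgeR called 0 of them in the 3 comparisons and 3 classes. For Ir-Veh against Ctl-Veh in DG the median log2 fold changes were -0.08 and 0.10 in these lists, against 0.04 over all 250 genes. In CA1 they were -0.05 and 0.12, against 0.05 over 233 genes, and in CA3 0.03 and 0.09, against 0.03 over 222 genes. Between runs, 4 of the 6 scaffolding and editing genes were called in DG (Dlg4, Adarb2, Camk2a and Camk2g), as were 3 of 6 ionotropic genes (Grin1, Grin2a and Grin2b), where 38.0% of all genes were. In CA1, 5 of the 6 scaffolding and editing genes were called between runs (Dlg4, Camk2a, Camk2g, Arc and Homer1) and 2 of the 6 ionotropic genes (Grin1 and Grin3a), beside 39.1% of all genes. In CA3, 0 of 6 were called in both lists, beside 1.80% of all genes.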

How the data were processed

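MERFISH had been run on a MERSCOPE instrument and cells outlined with a custom Cellpose pipeline, per the labels. The authors deposited raw counts per cell for the genes used here (255, from Abi3 to Kcnj8 in the alphabet; later genes were not analysed here), and a cell table with sample, run, class and Leiden cluster. The deposited total counts per cell were used in an alternative. The sources used here do not give cell filters, class assignment or software versions. Cell IDs shared between sections numbered 0. No cell was removed and no doublet caller was run on imaged cells.

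Counts were summed per section and class (20 or more cells) and tested with edgeR 4.0.16 (quasi-likelihood, TMM, filterByExpr) in R 4.3.3, with all 14 sections in 1 fit on group. Benjamini-Hochberg adjustment ran over all genes of a fit, with calls at 0.05. Levels are edgeR CPM on TMM-scaled totals divided by 100, as counts per 10000. Levels within a section, in the orders of classes, were not TMM-scaled. Fold changes are log2 with SE. Shares and ratios used exact permutation over sections. Figures used matplotlib 3.10.9. Nothing in the labels ties each section to an animal of its own. A p-value therefore reflects the spread among these sections alone, and that spread may be technical.

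Named genes were the 6 members, the 3 most similar genes of each, and listed genes that passed; others were chosen after their values were seen. Some genes that this rule names, and 1 list, are not reported here. Members and lists were chosen with earlier results of these data known. The title number is the imaging run; after removal of group means, sections of a run deviated together (r of 0.298 to 0.671 in 7 runs), so the runs pair the sections. On simulated data for the Ir-Veh against Ctl-Veh comparison, edgeR was tested before use. The simulation had large changes, pooled classes and no run differences, so it does not show how edgeR handles small changes or runs. Alternatives were DESeq2 1.42.0, limma 3.58.1 with the run as a random effect, 3 other library sizes, all genes without the low-count filter, only cells of at least 50 counts, the main Leiden cluster of each class, the compared groups alone, a block for the run, and each section left out in turn. Probe and protein sequences were not used here.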

Additional observations from a re-analysis of the deposited data

Results flagged for a closer look

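In groups of 4 or 5 sections, 60 groups of levels and shares were screened for a section far from the others of its group, and 5 were found, where chance flags about 1 in 20 groups. All 5 lay in Ir-Veh. Cacng4 in DG of Ir-Veh 2 had 1.33 counts per 10000, against 1.84 to 1.93 in the other Ir-Veh sections. Gria1 in CA1 of Ir-Veh 9 had 574, against 765 to 789. Gria4 in CA1 of Ir-Veh 1 had 9.87, against 8.37 to 8.52. Cacng5 in CA1 of Ir-Veh 2 had 2.39, against 1.29 to 1.35. The Gria3 share in CA3 of Ir-Veh 2 was 11.9%, against 10.5% to 10.6%.

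Of 30 levels and shares compared within runs, 2 had RZ minus vehicle differences of one sign in every irradiated pair and of the other sign in every unirradiated pair. For Gria3 in DG the mean difference within runs was 5.89 counts per 10000 in irradiated pairs and -17.1 in unirradiated pairs, which lie 22.96 apart. For Gria4 in CA1 it was -0.839 in irradiated pairs and 2.06 in unirradiated pairs, a difference of -2.90. In run 3 the Gria4 levels were 8.73 in Ctl-Rz 3 and 8.71 in Ctl-Veh 3, a difference of only 0.0191. Such a split of signs was also shown by 12 of the 250 genes tested in DG (4.80%), by 15 of 233 tested in CA1 (6.44%) and by 15 of 222 tested in CA3 (6.76%). The measures come from the same sections and are not independent. With the run as a block, edgeR's interaction was 0.29 ± 0.17 for Gria3 in DG (adjusted p = 0.905) and -0.46 ± 0.34 for Gria4 in CA1 (adjusted p = 0.993), on the log2 scale ± SE. Without the block the adjusted p was 0.992 and 0.991.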

How the results depend on the processing

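No member was called in a group comparison under any alternative run. Over 92 log2 fold changes of members (interactions and pooled classes included), 299 of 2179 alternative values had the other sign, in 64 of the 92, and 0 of these was called. In 2 cases the estimate had been larger than its SE: Gria3 in DG for Ctl-Rz minus Ctl-Veh was 0.0618 with the number of cells as library size, and Gria3 in CA3 for the same comparison ran from -0.838 to 0.00593 as each section was left out, the upper value without Ctl-Rz 3. The cause was not tested. Most estimates rest on few sections: leaving out 1 section moved 65 of the 68 members' estimates in single classes by over 1.5 times or turned their sign. Of the counts of calls, 2 rose above 0, both for Ctl-Rz minus Ctl-Veh in limma with the run as a random effect: 2 genes in DG and 1 gene in all cells. Between runs in CA3, DESeq2's likelihood ratio test called 24 genes and edgeR 4. With the replicate block, the imaging run that pairs the sections, no group call changed. Gria1 for Ir-Veh minus Ctl-Veh was 0.33 ± 0.14 in DG and 0.52 ± 0.20 in CA1 (log2 ± SE), against 0.10 ± 0.21 and 0.13 ± 0.21 without it. The blocked values rest on runs 2 and 12, the only 2 with both groups. Their log2 differences were 0.592 and 0.0607 in DG and 0.852 and 0.179 in CA1, larger in run 2. No recomputed difference passed the threshold, among 648 of subunit shares and 612 of class ratios. Some of them could not pass. The mean differences within runs, included in these numbers, carried no p. For Ir-Rz against Ir-Veh the smallest p that the exact permutation test allows with all sections is 0.0667. Shares of cells with a count, which depend on depth, moved by more than their SD between sections for 14 of 18 genes and classes when cells were thinned to 50 in place of 100 counts. The CA3 class, with as few as 57 cells in a section, and the sparse TARP counts limit precision.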
